A study of Drosophila melanogaster with 7 samples.

Results

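Jon25Biii, Jon44E, Jon65Ai, Jon66Ci, Jon66Cii and yip7 are 6 of the 7608 genes for which expression was measured by RNA-seq in Esg-GFP+ cells of the Drosophila midgut. The genes were taken by their symbols, with earlier results of these data known, and all 6 had a value above 0 in every library. The 5 Jonah (Jon) genes and yip7 encode secreted serine proteases of the trypsin and chymotrypsin type. The midgut makes such enzymes to digest dietary protein. They are products of enterocytes, the large absorptive cells that the progenitors of the gut form, and most are encoded in small clusters of similar genes. In this lineage an intestinal stem cell (ISC) gives rise to an enteroblast (EB), which then differentiates into an enterocyte. Sox21a, an HMG-box transcription factor of the SoxB group, is found in ISCs and EBs, and the comparison asks how the transcriptome of these cells differs when it is lost.

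The groups were 4 wild type libraries from the Esg-GFP line and 3 libraries from Esg-GFP; Sox21a-/- flies, both from adult midguts at day 10. Esg-GFP is a GFP fusion of Esg, the transcription factor that marks both ISCs and EBs, so the sort did not part ISCs from EBs or from cells that still held GFP. Many guts were pooled for a sort, and midguts of w1118 flies, which carry no GFP, set the gate. The sources used here do not say which Sox21a allele was used. They also do not say which of the 4 wild type libraries belong to the 3 biological replicates of the methods, so p-values measure only the spread between these libraries, part of which may be technical.

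The deposited values are FPKM, that is, fragments normalised to the length of the exons and to the number of mapped fragments. The depth recovered from the steps between low values was about 8474576 to 10582011 reads per library. Between 23.0% and 28.5% of the values of each library were listed at 0, which can be a failed estimate. Sox21a itself was at 0 in wild type replicates 1 and 2 and in Sox21a-/- replicate 3, so that it does not check the labels. Its other wild type values were 230 FPKM (replicate 3) and 233 FPKM (replicate 4). Sox21a-/- replicate 1 held 96.3 FPKM of it and Sox21a-/- replicate 2 held 50.6 FPKM. The study regards its 2 deletion alleles as null, since they lack nearly all of the coding region. The source of this Sox21a signal in the Sox21a-/- libraries was not tested. Wild type replicates 3 and 4 were more alike than the other libraries of one group, with a mean chi-square of 2.45 per gene where sampling alone gives about 1 and the other pairs gave 8.19 to 31.0. They differed by more than sampling noise. Their recovered depth came out the same, at 8752735 reads, but depth was searched in fixed steps, so that close depths can give the same value. The sources used here do not say whether they are independent samples. They were kept as separate libraries, and the 6 genes differed by 1.02-fold to 1.35-fold between them. The gene esg was not analysed here. Of the other progenitor markers, klu, an EB transcription factor, ranged from 29.7 to 49.0 FPKM in wild type and from 9.14 to 16.6 in Sox21a-/-. In the limma fit described below, klu was called lower, with a log2 difference of -1.655 (SE 0.27) and a Benjamini-Hochberg adjusted p of 0.0388. The ISC marker Delta, a Notch ligand, ranged from 0.518 to 1.20 FPKM in wild type and from 3.57 to 6.13 in Sox21a-/-. Its groups did not overlap, with Sox21a-/- higher, as in 16.1% of the tested genes at 0 in no library. Delta was not called in the same fit. The genes klu and Delta were thus present in all 7 libraries. Sox100B and E(spl)mbeta-HLH, also taken as progenitor markers, were above 0 in Sox21a-/- replicate 3 alone, at 378 and 1002 FPKM.

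Most of the protease genes were higher in the Sox21a-/- libraries. In 5 of the 6 genes every Sox21a-/- library lay above every wild type library, with ratios of the group means from 2.998 to 4.58, and Jon66Cii alone did not follow. Against this stands a wide spread among the wild type libraries, since replicate 1 was the lowest of all 7 libraries for each of the 6 genes. None of the 6 genes was called when adjusted p had to be 0.05 or less. Fewer cells of a type and less RNA per cell cannot be told apart in these bulk libraries.

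**Figure D1:**
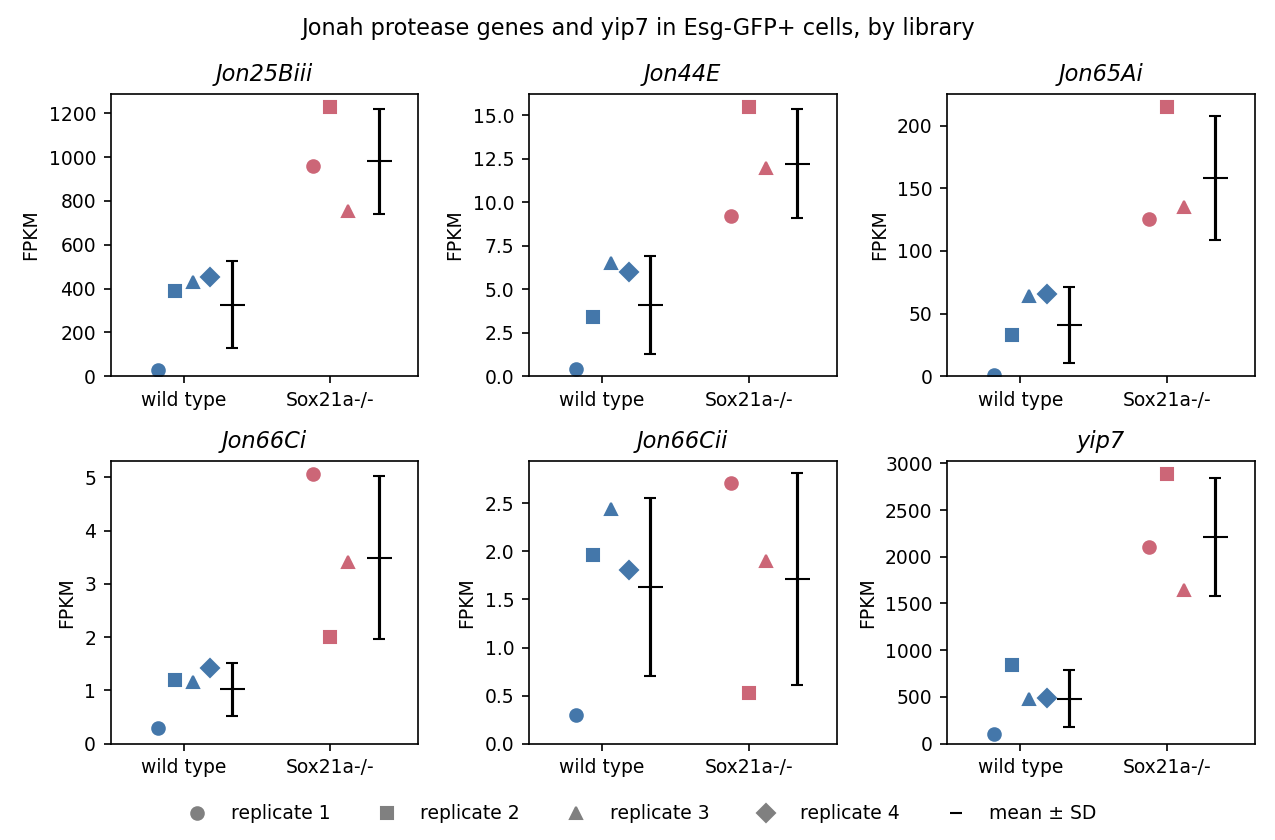
FPKM of each gene in each library, on linear axes that start at 0 and differ between panels, with wild type in blue and Sox21a-/- in red. Marker shapes give the replicate number, and the bar beside each group is the mean ± SD (n = 4 and n = 3). Wild type replicate 1 is lowest in all 6 panels, and the groups overlap only for Jon66Cii, where Sox21a-/- replicate 2 falls to 0.525 FPKM.

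The most abundant of the 6 was yip7 (FBgn0040060), named for a protein that bound Yippee and annotated as a serine protease. It lies on chromosome 3L at 6035216-6036175 of the BDGP6 assembly, on the plus strand, within the 65A cluster of Jonah genes and 2979 bases from Jon65Aiv. Its annotated exons form 2 blocks, whereas each of the other 5 genes is annotated as 1 block without an intron. Its FPKM were 108.7, 846.5, 482.9 and 493.9 in wild type replicates 1 to 4 and 2102, 2886 and 1645 in Sox21a-/- replicates 1 to 3. The lowest Sox21a-/- library was thus 1.94 times the highest wild type library. The group means were 483 ± 301 FPKM (SD, n = 4) and 2211 ± 628 FPKM (SD, n = 3), a ratio of 4.58. On the log2(FPKM + 1) scale, which is used for all log2 differences here and understates the change of weakly expressed genes, yip7 was higher by 2.48 (SE 0.72). The limma fit across 6565 genes gave P = 0.0132, with an adjusted p of 0.221 (Benjamini-Hochberg), and an exact two-sided permutation test over the 35 ways to part the libraries gave p = 0.0571. The smallest p this test can give is 0.0286.

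Jon25Biii (FBgn0031653), the second most abundant, lies on 2L at 4949941-4950767, on the minus strand, in a cluster with Jon25Bi and Jon25Bii. It stood at 29.8, 390.5, 431.8 and 453.4 FPKM in the wild type libraries and at 958.2, 1230.4 and 752.9 FPKM in the Sox21a-/- libraries. Wild type replicates 2 to 4 were close to each other here, while replicate 1 was 14.3 times below their mean. The means were 326 ± 199 FPKM (SD, n = 4) and 980 ± 240 FPKM (SD, n = 3), a ratio of 3.004. The log2 difference was 2.12 (SE 1.04), with a 95% confidence interval from -0.41 to 4.66. That interval includes 0, with P = 0.0861 and an adjusted p of 0.461 in limma and an exact permutation p of 0.0857.

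Jon65Ai (FBgn0035667) is on 3L at 6053493-6054443, on the minus strand and 17317 bases from yip7. Its values were 1.28, 32.7, 63.6 and 65.5 FPKM in wild type and 125.1, 214.9 and 134.9 FPKM in Sox21a-/-. In fold terms the wild type spread was the widest of the 6 genes, since replicate 1 was 42.0 times below the mean of the other wild type libraries. The means were 40.8 ± 30.3 FPKM (SD, n = 4) and 158 ± 49.3 FPKM (SD, n = 3). Jon65Ai had the largest log2 difference of the 6 genes, 2.69, and also the largest standard error, 1.26, and it was not called. Its P was 0.0755 and its adjusted p 0.431 in limma, with an exact permutation p of 0.0857.

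A lower level was seen for Jon44E (FBgn0001285), which lies on 2R at 8691448-8692844, on the plus strand, away from the other 5. It has 2 annotated transcripts, as has Jon65Ai, so their reads are recovered less exactly than those of the other genes. Wild type libraries held 0.402, 3.39, 6.50 and 6.01 FPKM and Sox21a-/- libraries 9.21, 15.5 and 11.9 FPKM. The value of replicate 1 corresponds to about 5.1 reads, against 42.5 to 195.1 reads in the other 6 libraries. The means were 4.07 ± 2.80 FPKM (SD, n = 4) and 12.2 ± 3.14 FPKM (SD, n = 3), a ratio of 2.998. The log2 difference was 1.61 (SE 0.66), with P = 0.0490 and an adjusted p of 0.345 in limma and the same exact permutation p of 0.0857. In Jon25Biii, Jon65Ai and Jon44E alike the groups separate on their raw values but replicate 1 widens the wild type group on the log scale.

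Jon66Ci and Jon66Cii, a pair of neighbours with opposite orientation, were the weakest of the 6 and did not behave alike. Jon66Ci (FBgn0035886) is on 3L at 8391540-8392377 on the plus strand, and Jon66Cii (FBgn0035887) at 8392820-8393649 on the minus strand, with 442 bases between them. In wild type Jon66Ci was at 0.295, 1.19, 1.16 and 1.43 FPKM, against 5.07, 2.001 and 3.41 FPKM in Sox21a-/-, so the groups did not overlap. Its log2 difference was 1.13 (SE 0.38), with P = 0.0243 and an adjusted p of 0.294 (limma with Benjamini-Hochberg adjustment), and its exact permutation p of 0.0286 is the smallest possible. Jon66Cii had wild type values of 0.299, 1.96, 2.44 and 1.81 FPKM, and Sox21a-/- values of 2.71, 0.525 and 1.90 FPKM. The groups overlapped throughout, and the log2 difference was 0.04 with a 95% confidence interval from -1.17 to 1.25. A rise of the size measured for Jon66Ci lies inside this interval, so the fit does not show that Jon66Cii is unaltered, and its sign turned without wild type replicate 1 (-0.27), without Sox21a-/- replicate 1 (-0.23) and without Sox21a-/- replicate 3 (-0.06).

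The order of these neighbours in FPKM, a unit that corrects for length, differed between the genotypes. The ratio of Jon66Ci to Jon66Cii was 0.987, 0.608, 0.475 and 0.790 in the wild type libraries and 1.87, 3.81 and 1.80 in the Sox21a-/- libraries. The mean log2 ratio was -0.54 ± 0.46 (SD, n = 4) in wild type and 1.23 ± 0.61 (SD, n = 3) in Sox21a-/-. The difference of 1.76 had an exact two-sided permutation p of 0.0286, and it was between 1.41 and 1.95 when each library was left out in turn, where the p of 0.0667 or 0.1 is the smallest that such a design allows. This ratio was chosen after its values had been seen.

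Few reads stand behind it. The FPKM correspond to about 1.99, 7.99, 6.49 and 7.98 reads of Jon66Ci in wild type and 27.4, 13.4 and 19.9 in Sox21a-/-. For Jon66Cii they correspond to about 1.99, 12.98, 13.5 and 9.98 reads in wild type and 14.5, 3.48 and 11.0 in Sox21a-/-. In wild type replicate 1 the pair therefore had the same number of reads. The exact 95% Poisson interval of Jon66Ci ran from 0.447 to 2.46 FPKM in wild type replicate 3 and from 1.08 to 3.39 FPKM in Sox21a-/- replicate 2, so counting error alone, which is all that these intervals cover, lets these libraries overlap. In 3 libraries, wild type replicate 3 and Sox21a-/- replicates 1 and 2, the recovered reads of both genes lay within 0.1 of the midpoint between whole numbers, and in the other 4 both were that near to a whole number. Cufflinks by default divides a read that maps to several places among them, and the same libraries are affected in both genes. Whether reads were shared between them was not tested, and the levels of this pair are uncertain to that extent.

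**Figure D2:**
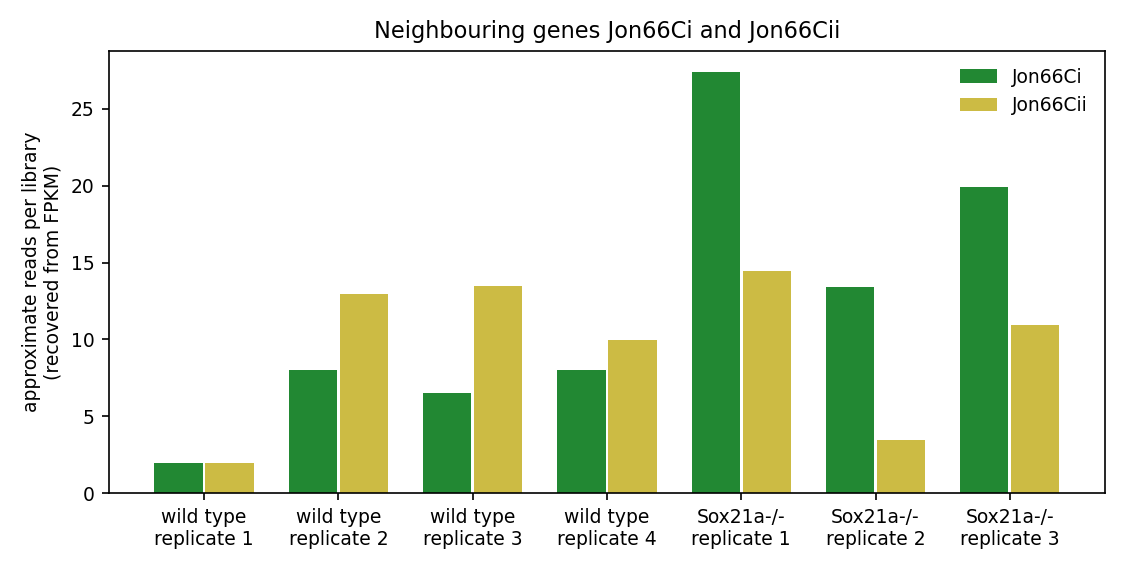
Approximate number of reads recovered from FPKM for Jon66Ci (green) and Jon66Cii (yellow) in each of the 7 libraries, on an axis that starts at 0. Jon66Ci is below or level with Jon66Cii in the wild type libraries, at 1.99 to 7.99 reads, and above it in the Sox21a-/- libraries, at 13.4 to 27.4 reads.

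Because the 6 genes were chosen with earlier results of these data known, their counts beside all genes are a description and no test. Read against the whole table, the counts were as follows. Of the 6 genes, 0 were called in either direction with adjusted p up to 0.05, where 1.39% of the 6565 genes tested were called higher (limma with Benjamini-Hochberg adjustment). By the criteria named in the study's methods, P of at most 0.05 and a fold of at least 2 (here on the log2 scale above), the genes called higher were Jon44E, Jon66Ci and yip7, which are 3 of 6, while 6.67% of all genes tested were called higher. Leaving out Sox21a-/- replicate 1 or Sox21a-/- replicate 3 lowered this count to 1, and leaving out wild type replicate 1 raised it to 4. The groups did not overlap, with Sox21a-/- higher, in 5 of the 6 genes and in 9.72% of the genes tested, or 16.1% of the 2460 tested genes that were at 0 in no library. The median log2 difference of the 6 genes was 1.87, beside 0.04 over all genes tested and -0.01 over those 2460.

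The call of yip7 and Jon66Ci depended on how the zeros of other genes were treated. Neither gene has a zero, and their log2 differences stayed the same. With zeros treated as missing the adjusted p was 0.0421 for yip7 and 0.0497 for Jon66Ci, and with only genes at 0 in no library it was 0.0368 and 0.0413 (limma with Benjamini-Hochberg adjustment). More genes passed under these settings in general, since 7% of the 4912 genes tested in the first and 9.23% of the 2460 in the second were called higher. Over all alternatives it ranged from 0.0368 to 0.549 for yip7 and from 0.0413 to 0.569 for Jon66Ci. The log2 differences of both genes stayed above 0 in each alternative, as did those of Jon25Biii, Jon44E and Jon65Ai.

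**Figure D3:**
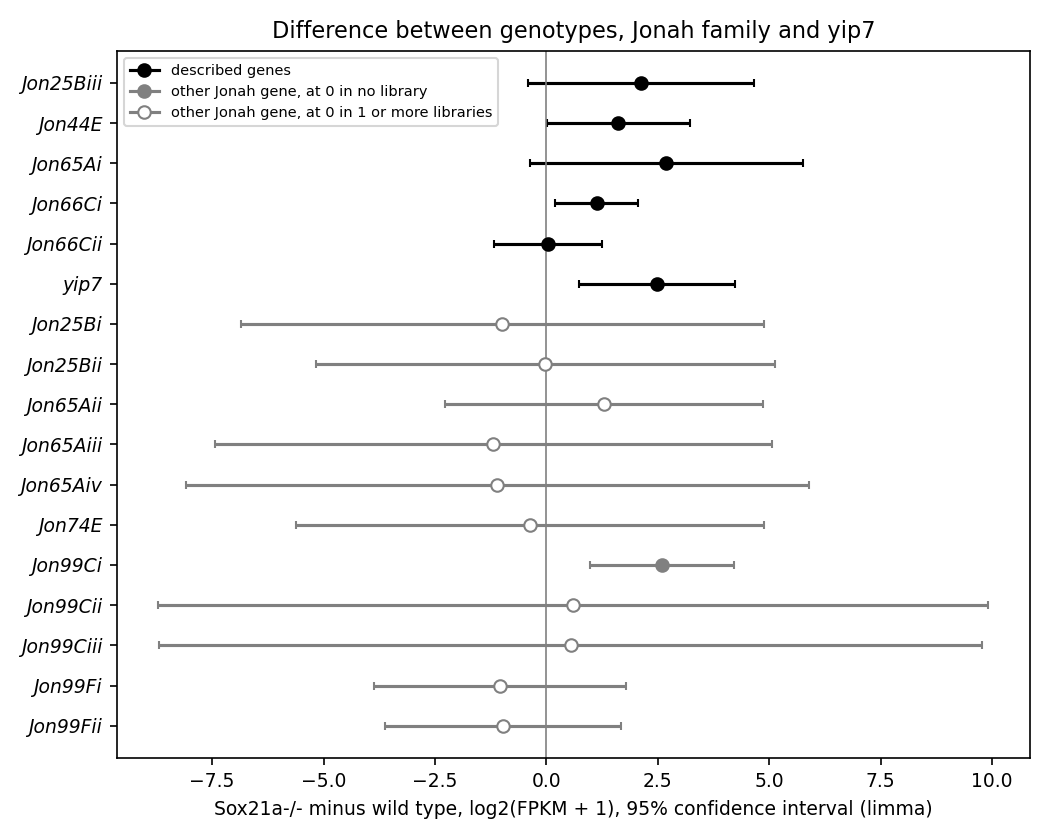
Log2 difference in FPKM + 1, Sox21a-/- minus wild type, with its 95% confidence interval from limma (n = 4 and n = 3). Black points are the 6 genes described, grey filled points the other Jonah gene at 0 in no library (Jon99Ci, at 2.59), and open points the Jonah genes at 0 in 1 or more libraries, whose intervals are much wider, such as that of Jon65Aiv from -8.09 to 5.89. The intervals of Jon44E, Jon66Ci, yip7 and Jon99Ci lie above 0.

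Wild type replicate 1 decided the size of several differences. It lay below the mean of the other wild type libraries by 4.27 times for Jon66Ci, 5.59 times for yip7, 6.93 times for Jon66Cii, 13.2 times for Jon44E, 14.3 times for Jon25Biii and 42.0 times for Jon65Ai. This library was the lowest wild type library for 24.3% of the 2460 genes at 0 in no library. Without it the ratio of the means was 3.64 for yip7, 2.94 for Jon65Ai, 2.77 for Jon66Ci, 2.31 for both Jon25Biii and Jon44E, and 0.826 for Jon66Cii. The log2 differences became 1.87 for yip7, 1.56 for Jon65Ai, 1.18 for Jon25Biii, 1.08 for Jon44E and 0.93 for Jon66Ci. None passed an adjusted p of 0.05 (limma with Benjamini-Hochberg adjustment). The standard errors fell as well, from 0.72 to 0.35 for yip7, 1.04 to 0.24 for Jon25Biii and 1.26 to 0.38 for Jon65Ai. In the same fit the adjusted p fell from 0.221 to 0.0741 for yip7 and from 0.461 to 0.0957 for Jon25Biii. It also fell for Jon65Ai, from 0.431 to 0.153, and for Jon44E, but rose for Jon66Ci, from 0.294 to 0.404.

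Libraries also fall into a group of higher depth, namely wild type replicates 1 and 2 with Sox21a-/- replicate 2, and a group of lower depth. Sox21a-/- was the higher genotype for Jon25Biii, Jon44E, Jon65Ai, Jon66Ci and yip7 at both depths. The ratio of the means at higher and at lower depth was 6.04 and 3.84 for yip7, 5.85 and 1.93 for Jon25Biii, 12.7 and 2.02 for Jon65Ai, 8.18 and 1.69 for Jon44E, and 2.69 and 3.27 for Jon66Ci. For Jon66Cii it was 0.465 at higher depth and 1.08 at lower depth. The ratios at higher depth rest on 1 Sox21a-/- library and on a wild type mean that includes replicate 1, the lowest library for each of the 6 genes. Depth and the low level of this library therefore cannot be told apart here, and the differences within a depth were not tested.

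The 6 genes together made up 0.0337%, 0.398%, 0.206% and 0.214% of the summed FPKM in wild type replicates 1 to 4 and 0.596%, 1.14% and 0.532% in Sox21a-/- replicates 1 to 3. All Sox21a-/- libraries thus gave these proteases a larger share than any wild type library. The mean share was 0.213% ± 0.149 (SD, n = 4) in wild type and 0.756% ± 0.335 (SD, n = 3) in Sox21a-/-, 3.55 times as much. This ratio is carried by yip7 and Jon25Biii. Of the sum over the 6 genes, yip7 gave 77.2%, 66.3%, 48.9% and 48.3% in wild type and 65.6%, 66.4% and 64.5% in Sox21a-/-. Jon25Biii gave 21.2%, 30.6%, 43.7% and 44.4% in wild type and 29.9%, 28.3% and 29.5% in Sox21a-/-. The makeup of the sum was nearly the same in the 3 Sox21a-/- libraries, and wild type replicate 2 had this makeup too, while wild type replicates 3 and 4 held almost as much Jon25Biii as yip7.

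Ordered by FPKM, the genes ran yip7, Jon25Biii, Jon65Ai and Jon44E in every library, with Jon66Ci and Jon66Cii last. The levels of yip7 and Jon25Biii were near each other in wild type replicates 3 and 4 and lay further apart in the rest. Sox21a-/- replicate 2 was the highest library for Jon25Biii, Jon44E, Jon65Ai and yip7, and Sox21a-/- replicate 1 for Jon66Ci and Jon66Cii. Correlations are given as a description over the 7 libraries, which differ in genotype and depth, so that both can enter them. The log2 level of each gene had a Pearson correlation with the mean of the other 5 genes of 0.987 for Jon25Biii, 0.977 for Jon65Ai, 0.960 for Jon44E, 0.922 for yip7, 0.832 for Jon66Ci and 0.482 for Jon66Cii. The closest pair was Jon25Biii and Jon65Ai, on different chromosome arms, at 0.991. The least close was Jon66Cii and yip7, at 0.346.

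The 3 other genes whose log2 level was most like the mean of the 6 were chosen by this correlation among 2454 genes at 0 in no library. CG34176, for which no role is given here, had a correlation of 0.992 and stood at 21.8 to 78.2 FPKM in wild type and 106.4 to 132.0 FPKM in Sox21a-/-. CG10472, at 0.992, is another gene of the 65A region, on 3L at 6061372-6062910. It stood at 10.6, 100.2, 180.7 and 194.9 FPKM in wild type and 427.7, 490.8 and 322.8 FPKM in Sox21a-/-. PGRP-SC2, at 0.986, encodes a secreted amidase that degrades bacterial peptidoglycan in the gut, and it stood at 6.67 to 96.8 FPKM in wild type and 153.1 to 298.0 FPKM in Sox21a-/-. All 3 had wild type replicate 1 as their lowest library and Sox21a-/- replicate 2 as their highest. None of the 3 was called, with adjusted p from 0.364 to 0.415 (limma with Benjamini-Hochberg adjustment).

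The table holds 11 further Jonah genes, and 10 of them were at 0 in at least 1 library. Jon99Ci, on 3R at 29925226-29926189, had no zero. It stood at 29.0, 159.4, 95.5 and 98.2 FPKM in wild type and 481.0, 877.0 and 289.2 FPKM in Sox21a-/-, with the same lowest and highest libraries as yip7. Its log2 difference was 2.59 (SE 0.67), with P = 0.00781 and an adjusted p of 0.164 (limma with Benjamini-Hochberg adjustment) and an exact permutation p of 0.0286. With zeros kept as values, none of the 11 was called, 1 was higher by P and fold, and the median log2 difference was -0.37, beside 0.04 over all genes tested.

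That median rests on zeros in highly expressed genes. Wild type libraries held Jon65Aiv at 142 to 535 FPKM, and it was at 0, 3212 and 1515 FPKM in Sox21a-/-. Jon65Aiii, 1802 bases from Jon65Ai, ranged from 73.9 to 453 FPKM in wild type, against 1052, 0 and 794 FPKM in Sox21a-/-. Jon25Bi and Jon25Bii, the neighbours of Jon25Biii, were also listed at 0 in Sox21a-/- replicate 2, where Jon25Biii had its highest value of 1230 FPKM. Jon99Cii and Jon99Ciii, which lie 298 bases apart, were listed at 0 in the same libraries, wild type replicate 2 and Sox21a-/- replicate 1. Jon99Ci, 610 bases from Jon99Cii, had 159 and 481 FPKM there. The zeros therefore fell on some genes of a cluster while others in the same library had high values.

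Of the 11 genes, 8 had at least 2 values above 0 in each group. In 7 of these 8 every value above 0 in Sox21a-/- exceeded every wild type value, and the exception was Jon74E, at 5.52 to 143 FPKM in wild type and 289.2 and 95.2 FPKM in 2 of the 3 Sox21a-/- libraries. All of the 8 but Jon99Ci had only 2 Sox21a-/- values above 0, which separate more easily than 3. The share over all genes with zeros left out was not computed. Among tested genes at 0 in no library the groups did not overlap, with Sox21a-/- higher, in 16.1%. With zeros treated as missing, the log2 differences of the 8 genes ran from 1.94 to 2.71, and 3 of them were called, namely Jon25Bii (adjusted p = 0.00657), Jon99Ci (0.0278) and Jon65Aiv (0.0323, limma with Benjamini-Hochberg adjustment), where 7% of all genes tested in this way were called higher. Jon65Aii, Jon99Fi and Jon99Fii had too few values above 0. As copies of one family can share reads in mapping, the split of reads among close copies is uncertain.

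**Figure D4:**
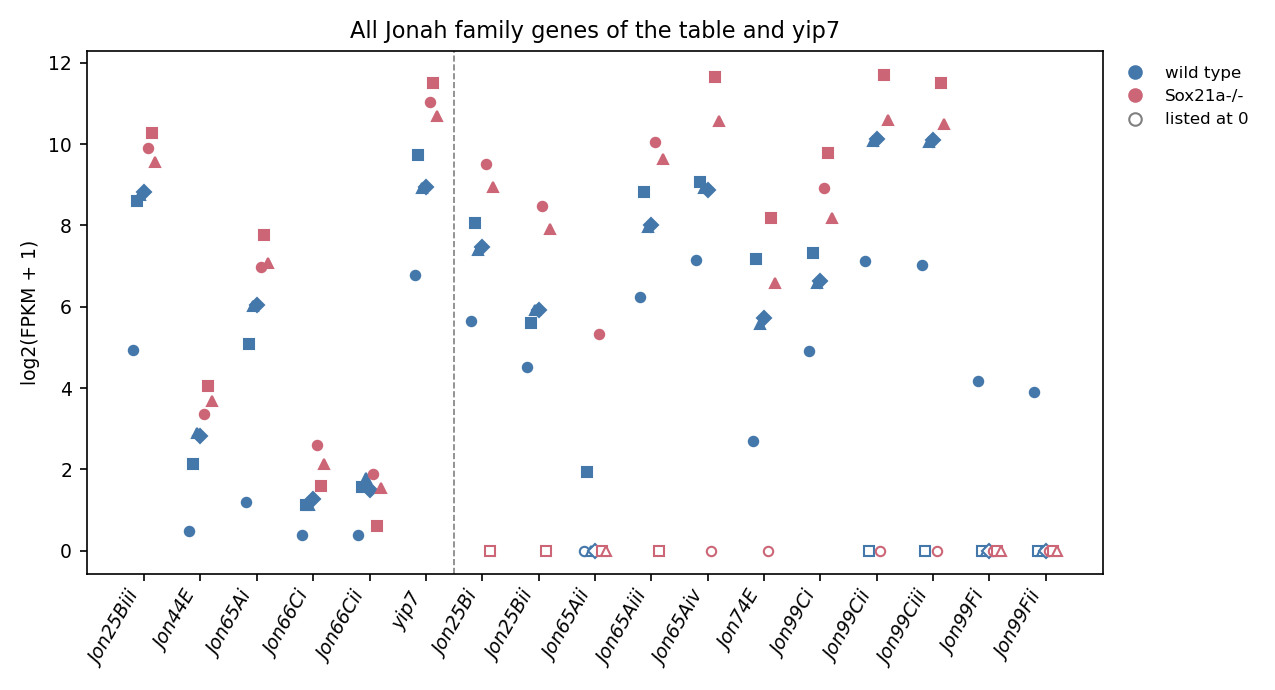
log2(FPKM + 1) of the 6 genes described (left of the dashed line) and of the 11 other Jonah genes (right) in each library, wild type in blue and Sox21a-/- in red. Circles, squares, triangles and diamonds are replicates 1, 2, 3 and 4, and open symbols are values listed at 0. Among filled symbols the red ones lie above the blue ones in most genes, with wild type replicate 1 the lowest filled symbol in most.

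Other digestive enzymes were higher in part. Of 13 further digestive serine proteases in the table, 2 were called higher and 0 lower by adjusted p. By P and fold 8 passed, each of them higher, and the median log2 difference was 1.17. Over all genes tested, 1.39% were called higher by adjusted p and 6.67% were higher by P and fold. Called were lambdaTry, at 2.26 (SE 0.37, adjusted p = 0.0388), and kappaTry, at 2.11 (SE 0.37, adjusted p = 0.0481, limma with Benjamini-Hochberg adjustment), both genes of trypsin-type proteases. Of 20 maltases, amylases, lysozymes and lipases, 3 were called higher and 0 lower, 7 were higher by P and fold, and the median was 1.38. They were Mal-A3, a maltase, at 1.65 (SE 0.27, adjusted p = 0.0402), tobi, an alpha-glucosidase, at 4.69 (SE 0.46, adjusted p = 0.00578), and the lysozyme gene LysP, at 2.77 (SE 0.31, adjusted p = 0.00995), which was listed at 0 in all 4 wild type libraries and stood at 5.40, 8.46 and 4.21 FPKM in Sox21a-/-. Wild type replicate 1 was the lowest wild type library for 5 of the 8 serine proteases and 8 of the 10 other enzymes at 0 in no library.

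Markers of other cells are given beside these values. Their counts stand beside the same shares over all genes tested, 1.39% called higher and 6.67% higher by P and fold. Of the enterocyte markers other than enzymes, 4 were in the table, 0 were called and 1 was higher by P and fold. The gene nub, which encodes the enterocyte transcription factor Pdm1, had 1.93, 4.40, 4.32 and 3.68 FPKM in the wild type libraries, against 4.68, 7.57 and 4.56 FPKM in Sox21a-/-. Its groups did not overlap, its lowest and highest libraries were those of yip7, and its log2 difference of 0.54 (SE 0.36) was not called (adjusted p = 0.600, limma with Benjamini-Hochberg adjustment). The other 3, Myo31DF, Alp4 and GATAe, were at 0 in at least 1 library. The summed level of the 4 was 1.93 to 246 FPKM in wild type and 14.3 to 79.0 FPKM in Sox21a-/-, and it moved with these zeros. Myo31DF gave most of the high wild type sums, with 241 FPKM (replicate 2) and 212 FPKM (replicate 4), and was 0 in every other library. Alp4 reached at most 1.11 FPKM in wild type, against 9.58, 13.1 and 0 FPKM in Sox21a-/-. GATAe was 0 in all wild type libraries, against 0, 53.9 and 74.4 FPKM in Sox21a-/-. Of the 5 hemocyte markers in the table, 0 were called and 2 were higher by P and fold. Their sum was 2.63 to 133 FPKM in wild type and 145 to 197 FPKM in Sox21a-/-. Most of it was crq, a scavenger receptor, except in wild type replicate 1, where crq was listed at 0. In Sox21a-/- replicate 2 crq made up 123 of 197 FPKM. Without crq, left out after its values were seen, the sum was 2.63, 3.802, 3.38 and 2.21 FPKM in wild type and 7.69, 74.7 and 9.64 FPKM in Sox21a-/-, so wild type replicate 1 did not stand apart, while Sox21a-/- replicate 2 was the highest library. NimC1, a receptor that defines plasmatocytes, ranged from 0.102 to 0.876 FPKM in wild type, against 1.98, 15.0 and 2.01 FPKM in Sox21a-/-, and He, another plasmatocyte marker, was at 0 in 4 libraries. The 7 enteroendocrine markers summed to 4517 to 28603 FPKM in wild type and 8691 to 35600 FPKM in Sox21a-/-, and 0 were called or passed P and fold. These sums move with values listed at 0, since the peptide hormone gene Orcokinin was at 0 in 3 libraries and at 16414 to 29986 FPKM in the other 4, and NPF was at 0 in Sox21a-/- replicate 3. The 2 visceral muscle markers and the 1 tracheal marker in the table summed to at most 5.33 and 2.36 FPKM in any library. The part of enterocytes, hemocytes or other cells in the differences of the 6 genes was not tested.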

How the data were processed

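RNA-seq libraries of sorted Esg-GFP+ midgut cells were analysed, 4 wild type and 3 Sox21a-/-. Per the labels and the study's methods, the authors mapped single-end reads with TopHat2 (2.0.10) to Release 5 with the BDGP5 annotation. Cufflinks (2.2.1) then gave FPKM. The deposited table of FPKM, 1 column per library and 7608 gene IDs, was the sole input. FlyBase IDs were looked up in the BDGP6 annotation for symbols and positions (7339 IDs matched). No sequence of the genes was used here.

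The 6 genes, the gene lists and the alternatives were chosen with earlier results of these data known. Other named genes are the 11 other Jonah genes in the table, the 3 genes most correlated with the 6, and marker or enzyme genes that a result turns on.

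The fit took genes whose mean FPKM was 1 or more and was made on log2(FPKM + 1) with limma 3.58.1 in R 4.3.3 (lmFit, eBayes with trend and robust settings), two-sided, on all 7 libraries without a covariate, with Benjamini-Hochberg adjustment over 6565 genes. Exact permutation tests were two-sided over 35 ways. Approximate reads were recovered from FPKM steps, with exon length less 200 bases as effective length. For 167 to 255 weakly expressed genes per library, 72.4% to 79.9% of the values lay within 0.07 of a whole read, too few for a count test. Alternatives were another pseudocount, filter or scaling, zeros as missing, genes at 0 in no library, simpler limma settings, a replicate block, wild type replicates 3 and 4 averaged, and each library left out. The permutation tests were run in R. Python 3.11.15 was used with scipy 1.17.1 for the Poisson intervals, pandas 2.3.3 and numpy 2.4.6, and figures were drawn with matplotlib 3.10.9.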

Additional observations from a re-analysis of the deposited data

Results flagged for a closer look

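For the 17 genes of the Jonah family and yip7, with the share of summed FPKM of the 6 as one more measure, 5 of 18 sets of 4 wild type values had a highest or lowest library set apart by a gap past Dixon's 95% critical value, where chance gives about 0.9 such sets. For 3 of the 5, Jon65Aii, Jon99Fi and Jon99Fii, the other 3 values are all 0, so that any value above 0 passes and the count of 5 says nothing of an excess over chance. Jon25Biii had wild type replicate 1 far below the others, at 29.8 FPKM. Jon65Aiv had the same library far below the others, at 142 FPKM. Jon65Aii was above 0 in wild type replicate 2 alone among the wild type libraries, at 2.85 FPKM, and in Sox21a-/- replicate 1, at 39.0 FPKM. Jon99Fi and Jon99Fii, which are neighbours, were above 0 in wild type replicate 1 alone among all 7 libraries, at 17.2 and 14.0 FPKM.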

How the results depend on the processing

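The log2 differences of Jon25Biii, Jon44E and Jon65Ai were above 0 and not called in all 16 alternatives, and those of yip7 and Jon66Ci were above 0 in all that tested them. None of the 6 genes was called under the others, but 2 were called with zeros as missing and 2 with only genes at 0 in no library. These were yip7, at 2.48 in both (adjusted p = 0.0421 and 0.0368), and Jon66Ci, at 1.13 in both (adjusted p = 0.0497 and 0.0413, limma with Benjamini-Hochberg adjustment), where 7% of 4912 and 9.23% of 2460 genes tested were called higher. Without 1 library the number of the 6 genes called stayed at 0. By P and fold it was 3, fell to 1 with a mean of at least 5 FPKM, which removes Jon66Ci from the test and takes the limma P of Jon44E from 0.0490 to 0.0511, and ran from 1 to 4 without 1 library. Jon66Cii turned to -0.27, -0.23 and -0.06 without wild type replicate 1, Sox21a-/- replicate 1 and Sox21a-/- replicate 3, within a range from -0.27 to 0.41. Of the 6565 genes tested 160 were called in either direction, against 613 with zeros as missing, 423 with only genes at 0 in no library, 105 with wild type replicates 3 and 4 averaged, and 122 to 196 without 1 library.

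The ratio of the shares of summed FPKM was 2.65 to 4.996 without 1 library and 3.54 with wild type replicates 3 and 4 averaged. The log2 ratio of Jon66Ci to Jon66Cii differed by 1.41 to 1.95 without 1 library and by 1.71 with these libraries averaged, alternatives chosen after seeing the data, as was the comparison within depths. For both, the exact permutation p was then 0.0667 or 0.1, the smallest these designs allow. With all 7 libraries it was 0.0286 for both, also the smallest possible, so these p-values do not show whether the differences weakened. The cause of the changes between alternatives was not tested.

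Same-numbered libraries had correlations of their deviations of 0.005, 0.372 and 0.202 over 2460 genes. Wild type replicates 2 and 3 were most like the Sox21a-/- library of the same number. Wild type replicate 1 was near 0 with every Sox21a-/- library (-0.030 to 0.037). Whether the numbers pair the libraries is therefore not settled. With the replicate number as a block 3 genes were called over all genes and none of the 6, whose log2 differences were 2.60 for yip7, 2.47 for Jon25Biii, 3.18 for Jon65Ai, 1.85 for Jon44E, 1.24 for Jon66Ci and 0.10 for Jon66Cii. Depth limits Jon66Ci and Jon66Cii most, at 1.99 to 27.4 reads per library.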
